A study of Mus musculus with 28 samples.

Results

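*Pth*, *Chga*, *Casr*, and *Gcm2* were followed across a mouse series on the carotid–jugular arteriovenous fistula (AVF). These 4 genes, of 56980 in the bulk count table, were selected on their measured counts in these libraries, which were high in a few fistulas, so their levels are given as a description, with no test. The series was made in male and female C57BL/6 mice that had lost most of their kidney mass by 5/6 nephrectomy before the jugular vein was joined to the carotid artery. Bulk RNA sequencing measured 1 vessel per library, 7 contralateral jugular veins from these nephrectomized mice and 8 early (day 3), 5 mid (day 10), and 5 late (day 21) AVFs. These days are those of the library titles, and the paper gives group means with a spread. Single-cell RNA sequencing measured pools of vessels, with 1 library for the contralateral veins, 1 for early AVFs, and 1 for late AVFs. The paper states later mean days for the early and late single-cell pools than for the bulk groups of the same name, so their time points differ. All groups, the contralateral veins included, carried the nephrectomy, and no vein from a mouse without it was among the samples analyzed here. Female mice gave 5 of 7 contralateral, 3 of 8 early, 3 of 5 mid, and 3 of 5 late libraries.

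Parathyroid glands lie in the neck beside the thyroid. Their chief cells release parathyroid hormone, encoded by *Pth*, which raises blood calcium through its receptor in bone and kidney. The calcium-sensing receptor *Casr* holds this secretion back when calcium is high, and the transcription factor *Gcm2* is required for the gland to form. *Chga* encodes chromogranin A, a granin of dense-core secretory granules that is also made by the adrenal medulla, sympathetic neurons, and other neuroendocrine cells. Loss of kidney function is known to raise parathyroid hormone secretion.

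In the GRCm38 annotation (GENCODE M21), *Pth* (ENSMUSG00000059077) lay on the minus strand of chromosome 7 at chr7:113385580-113388570, with 710 bp of exon. *Chga* (ENSMUSG00000021194) lay on the plus strand at chr12:102554969-102565028, with 2756 bp of exon. *Casr* (ENSMUSG00000051980) lay on the minus strand at chr16:36493696-36562141, with 4718 bp of exon. *Gcm2* (ENSMUSG00000021362) lay on the minus strand at chr13:41101427-41111035, with 3304 bp of exon. The only other annotated gene that overlapped any of them was *Gm25902*, a misc_RNA inside an intron of *Casr*.

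The 250 bases before the RefSeq start (GRCm38.p6) are shown for 3 of the genes because all 4 were high in the same libraries. Capitals mark 4 strings: the half-site of the cAMP response element, TGACG, the core box for polymerase positioning, TATAAA, the core bound by GCM factors, ATGCGGG, and the site of GATA factors, AGATAA, searched on both strands. The windows were chr7:113388574-113388823 on the minus strand for *Pth*, chr12:102554691-102554940 on the plus strand for *Chga*, and chr16:36562135-36562384 on the minus strand for *Casr*, and each is written 5′ to 3′ along its gene.
Pth: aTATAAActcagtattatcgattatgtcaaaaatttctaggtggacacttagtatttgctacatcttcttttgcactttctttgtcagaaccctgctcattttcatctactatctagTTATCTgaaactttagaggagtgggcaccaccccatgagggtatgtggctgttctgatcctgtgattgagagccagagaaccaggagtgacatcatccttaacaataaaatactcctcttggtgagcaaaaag
Chga: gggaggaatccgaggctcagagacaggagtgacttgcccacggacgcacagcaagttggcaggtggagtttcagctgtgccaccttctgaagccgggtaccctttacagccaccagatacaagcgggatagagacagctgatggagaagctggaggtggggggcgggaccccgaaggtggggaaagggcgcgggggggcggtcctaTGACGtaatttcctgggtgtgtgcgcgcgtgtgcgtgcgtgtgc
Casr: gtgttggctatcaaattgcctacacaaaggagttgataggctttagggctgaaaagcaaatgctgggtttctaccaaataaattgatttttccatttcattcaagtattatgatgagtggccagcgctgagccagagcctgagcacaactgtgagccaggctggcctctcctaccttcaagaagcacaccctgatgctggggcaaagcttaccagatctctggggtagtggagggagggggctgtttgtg
The *Pth* window held TATAAA from 249 to 244 bases before the start and AGATAA on the opposite strand from 133 to 128 bases before it. The *Chga* window held TGACG from 44 to 40 bases before the start. The *Casr* window held none of the 4 strings, and the *Gcm2* window, which overlapped annotated exons by 195 bp and is not shown, held AGATAA on the opposite strand from 15 to 10 bases before the start. Of 32851 RefSeq windows of the same length, 17.8% held TGACG, 12.4% held TATAAA, 1.19% held ATGCGGG, and 9.99% held AGATAA. No string was shared by all 4 windows. The matches are descriptions of letters and not binding sites.

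Bulk depth ranged from 20254173 to 67457501 counts per library, with group medians from 24834241 to 31176311. No pair of libraries held identical values. Levels are CPM (counts scaled to a common library size, here by TMM).

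Nearly all of the *Pth* counts came from 3 libraries, and these came from 3 different time points. *Pth* had 442835 counts (13919 CPM) in early AVF 1, 159637 counts (5268 CPM) in late AVF 19, and 53111 counts (1592 CPM) in mid AVF 12. It was the gene ranked 2 by counts in early AVF 1, 8 in late AVF 19, and 37 in mid AVF 12, where it took 1.43%, 0.573%, and 0.178% of all counts. Mid AVF 9 followed with 6254 counts (216 CPM), and early AVF 6 with 2890 counts (77.9 CPM). Each time point thus had 1 of the 3 highest vessels.

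The other early AVFs held 77, 144, 339, 0, 133, and 771 *Pth* counts in AVFs 2, 3, 4, 5, 7, and 10. Early AVF 5, at 0, was the most deeply sequenced library of all, but it held counts for 19074 genes, against 25036 in early AVF 1. The other mid AVFs held 280, 15, and 0 counts in AVFs 13, 14, and 15, and the other late AVFs held 30, 19, 23, and 13 in AVFs 16, 17, 23, and 24. In contralateral veins *Pth* had 48, 173, 0, 3, 0, 0, and 0 counts in veins 27, 28, 31, 34, 35, 632, and 633. The groups therefore overlapped, since contralateral vein 28 (10.8 CPM) was above the median of the early AVFs (9.04 CPM), the mid AVFs (7.68 CPM), and the late AVFs (0.621 CPM).

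**Figure D1:**
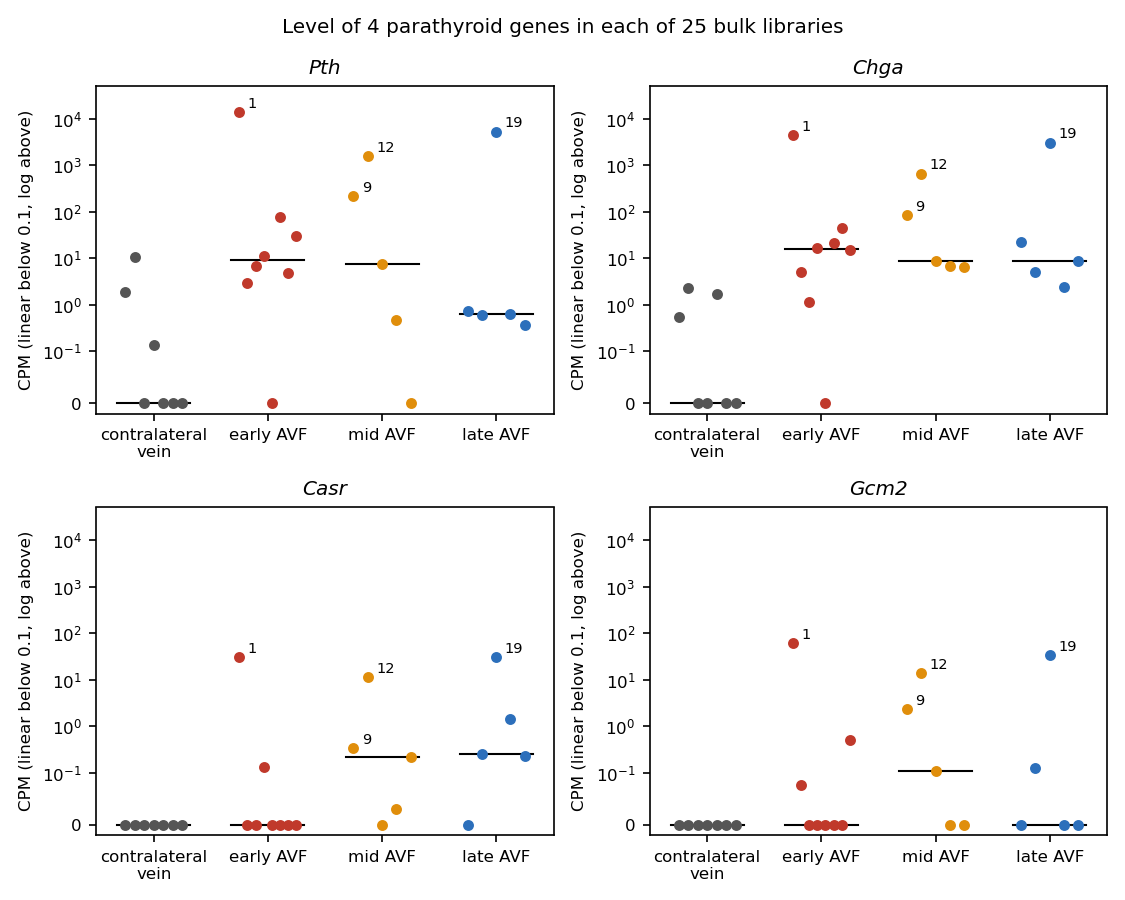
Level of each gene in CPM (vertical axis, linear below 0.1 and logarithmic above) in 25 bulk libraries by group. Each point is 1 vessel, horizontal lines are group medians, and numbers name the libraries with *Pth* above 100 CPM. Early AVF 1, mid AVF 12, and late AVF 19 are the highest of their groups for every gene, and all contralateral veins are at 0 for *Casr* and *Gcm2*.

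The mean *Pth* level was 1757 ± 4914 CPM (SD, n = 8) for early, 363 ± 693 (n = 5) for mid, and 1054 ± 2356 (n = 5) for late AVFs, against 1.82 ± 4.00 (n = 7) in contralateral veins. Each of these SDs exceeded its mean. Without early AVF 1 the early mean was 19.1 ± 27.7 CPM (n = 7). Without mid AVF 12 the mid mean was 56.0 ± 107 CPM (n = 4), and without late AVF 19 the late mean was 0.586 ± 0.155 CPM (n = 4). In each AVF group 1 vessel set most of the mean. The 3 vessels came from both sexes: early AVF 1 and mid AVF 12 were from male mice and late AVF 19 was from a female mouse.

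*Chga* was high in the same vessels. It had 142116 counts (4467 CPM) in early AVF 1, 92304 counts (3046 CPM) in late AVF 19, 21983 counts (659 CPM) in mid AVF 12, and 2434 counts (84.0 CPM) in mid AVF 9. The other early AVFs held 129, 24, 512, 0, 784, 1202, and 380 counts in AVFs 2 to 7 and 10, the other mid AVFs 313, 215, and 240 in AVFs 13 to 15, and the other late AVFs 917, 160, 89, and 296 in AVFs 16, 17, 23, and 24. Contralateral veins 27, 28, and 35 held 14, 37, and 50 *Chga* counts and the other 4 held 0. All mid and late AVFs lay above every contralateral vein (highest 2.30 CPM), whereas early AVFs 3 and 5 did not.

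*Casr* and *Gcm2*, which encode the receptor and the transcription factor, were detected at far lower counts. *Casr* had 973 counts in early AVF 1, 946 in late AVF 19, and 385 in mid AVF 12, or 30.6, 31.2, and 11.5 CPM. It had 52 counts in late AVF 23, 10 in mid AVF 9, 8 each in mid AVF 15 and late AVFs 17 and 24, 4 in early AVF 4, 1 in mid AVF 14, and 0 in the remaining 15 libraries. *Gcm2* had 1956 counts in early AVF 1, 1015 in late AVF 19, 468 in mid AVF 12, and 67 in mid AVF 9, or 61.5, 33.5, 14.0, and 2.31 CPM. It had 13 counts in early AVF 10, 4 each in mid AVF 13 and late AVF 17, 2 in early AVF 2, and 0 in the remaining 17 libraries. Both genes were at 0 in all 7 contralateral veins, where a count of 0 allows up to 3 counts, or from 0.103 to 0.187 CPM by library. This limit follows total counts alone. The contralateral libraries held counts for 11958 to 18283 genes, against 17514 to 26771 in the AVFs, so their zeros may be less sensitive than it states. Limits and intervals cover counting error only.

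Per kilobase of exon, the order of the genes was *Pth*, *Chga*, *Gcm2*, *Casr* in early AVF 1, at 19605, 1621, 18.6, and 6.48 CPM per kb. The same order was seen in late AVF 19, at 7419, 1105, 10.1, and 6.62 CPM per kb, and in mid AVF 12, at 2242, 239, 4.24, and 2.45 CPM per kb.

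The balance between the hormone and the granin differed between vessels. *Pth* made up 75.7% of the *Pth* and *Chga* counts in early AVF 1 (95% exact binomial interval 75.6–75.8), 72.0% in mid AVF 9 (71.0–72.9), 70.7% in mid AVF 12 (70.40–71.05), and 63.4% in late AVF 19 (63.2–63.6). It was 78.7% in early AVF 6 (77.3–80.0) and 82.4% in contralateral vein 28 (76.5–87.3), the contralateral vein with the most *Pth*. In contrast, *Chga* exceeded *Pth* in 10 AVFs, where the *Pth* share ranged from 0% in mid AVF 15 (0–1.53) to 47.2% in mid AVF 13 (43.1–51.3). Among them it was 3.17% in late AVF 16 (2.15–4.49), 4.21% in late AVF 24 (2.26–7.09), 6.52% in mid AVF 14 (3.70–10.5), and 9.96% in early AVF 7 (8.41–11.7). Read counts from amplified libraries are not independent molecules, and these intervals do not cover the spread between vessels.

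**Figure D2:**
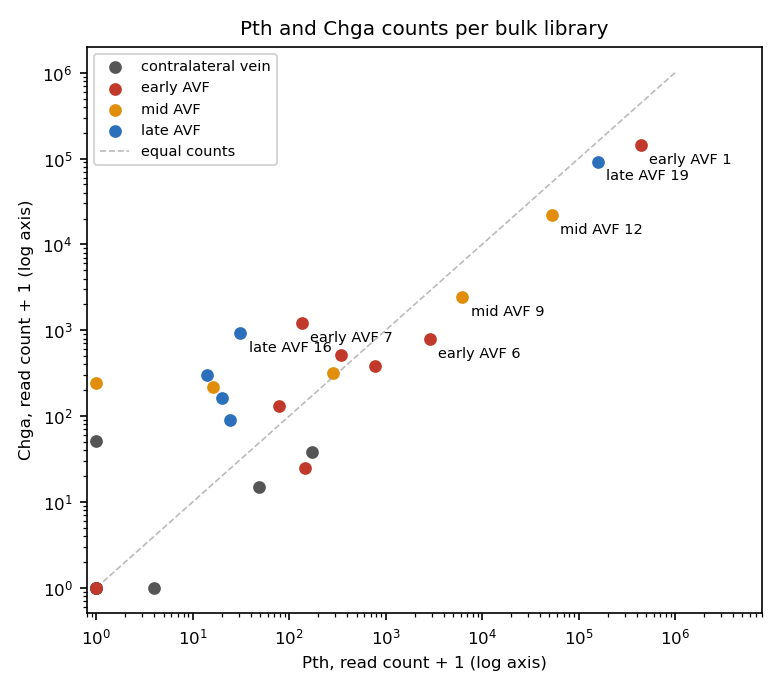
*Chga* against *Pth* read counts, each with 1 added (log axes), for 25 bulk libraries colored by group. The dashed line marks equal counts. Early AVF 1, late AVF 19, mid AVFs 12 and 9, and early AVF 6 lie below the line, and early AVF 7 and late AVF 16 lie above it.

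Set against *Pth*, *Casr* had 2.20 counts per 1000 *Pth* counts in early AVF 1, 5.93 in late AVF 19, 7.25 in mid AVF 12, and 1.60 in mid AVF 9. *Gcm2* had 4.42, 6.36, 8.81, and 10.7 counts per 1000 *Pth* counts in the same 4 libraries. Early AVF 6 held 2890 *Pth* counts and no count of either gene, which allows up to 1.04 counts per 1000 *Pth* counts. This limit lay below the *Gcm2* values of all 4 libraries with more *Pth*, and below their *Casr* values, of which the lowest, in mid AVF 9, rested on 10 counts.

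The genes whose log2(CPM + 0.5) was most like that of *Pth* were sought among 22274 genes over the 25 libraries. They were *Spink8* (Pearson r 0.93), *Chga* (0.90), *Gcm2* (0.90), *Cryba2* (0.87), *Rhcg* (0.86), *Cldn6* (0.86), *Fgf20* (0.86), *Sycp2l* (0.86), *Nell1* (0.85), and *2610528J11Rik* (0.85). *Spink8* encodes a serine protease inhibitor of the Kazal type, *Cryba2* a crystallin, *Rhcg* an ammonia transporter, and *Cldn6* a tight junction protein. *Spink8* had 4572 counts in early AVF 1, 1264 in late AVF 19, and 435 in mid AVF 12, and at most 231 outside the 4 libraries with *Pth* above 100 CPM. *Rhcg* had 1930 and 1366 counts in early AVF 1 and late AVF 19 and at most 2 in the 21 other libraries, and *Cryba2* had 1432, 615, and 250 in the same 3 libraries as *Spink8* and at most 31 in those 21.

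Most of these correlations rested on the 4 libraries. Over the other 21 libraries r with *Pth* was 0.77 for *Spink8*, 0.59 for *Chga*, 0.41 for *Gcm2*, and 0.16 for *Cryba2*, and it lay between -0.22 and 0.19 for the remaining 6. The libraries share depth and group with each point, and no p is given. The 3 genes most like *Chga* were *Pcyt1b* (r 0.92), *Bspry* (0.92), and *Prom2* (0.91), those most like *Casr* were *Rhcg* (0.97), *Nell1* (0.97), and *Sycp2l* (0.97), and those most like *Gcm2* were *Rhcg* (0.99), *Cldn6* (0.98), and *Nell1* (0.98). *Pcyt1b* kept r 0.89 with *Chga* over the 21 libraries, whereas r of the genes most like *Casr* or *Gcm2* then lay between -0.12 and 0.17.

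Genes of parathyroid development and regulation were compared between AVFs and contralateral veins with edgeR's quasi-likelihood test over 12673 genes, with a gene called when it changed at least 2-fold either way at an adjusted p (Benjamini–Hochberg) under 0.01. Of all genes tested, 12.6% were called at the early, 6.05% at the mid, and 5.33% at the late time point. The p-values measure the spread between the vessels sequenced. Of the 4 genes, *Pth*, *Chga*, and *Gcm2* passed the filter of a mean normalized count of 100 and *Casr*, at 84.9, did not; passing rested on the libraries where they were high. Of 18 list genes, 15 were tested, and none was lower, whereas 3 were higher in the early, 1 in the mid, and 1 in the late comparison. The median log2 fold change of the list was 0.42, 0.61, and 0.59 at the early, mid, and late time points, against -0.01, -0.10, and -0.09 over all genes tested. Without the 4 libraries with *Pth* above 100 CPM it was 0.02, 0.43, and 0.33, with 2, 0, and 0 genes higher.

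*Eya1*, a cofactor in pharyngeal organ formation, rose at each time point. Its log2 difference from contralateral veins was 7.14 ± 1.5 (SE, adjusted p = 0.00096) at the early, 5.85 ± 1.46 (adjusted p = 0.0078) at the mid, and 7.33 ± 1.54 (adjusted p = 0.0023) at the late time point. Contralateral veins averaged 0.0620 CPM of *Eya1*, so these fitted differences rest on few counts. *Eya1* passed the filter through the AVFs where it was high, so its calls lend no support of their own. Its 3 highest libraries were early AVF 7 (57.1 CPM), late AVF 16 (24.8), and late AVF 24 (16.3), which were also the 3 highest for the sympathetic genes *Th*, *Dbh*, and *Chgb*, followed by early AVF 1 (12.1). The part of sympathetic cells in the *Eya1* calls was not tested. The mid call was lost in 13 of 25 fits with 1 library left out and without the 4 libraries with *Pth* above 100 CPM (adjusted p = 0.063), and without those 4 so was the late one (adjusted p = 0.012). *Vdr*, the vitamin D receptor, rose in early AVFs (log2 difference 4.09 ± 1.07, adjusted p = 0.0060), a call lost without early AVF 1, contralateral vein 27, or contralateral vein 35 and without the 4 libraries (adjusted p = 0.035). *Vdr* was at most 2.67 CPM in contralateral veins and also passed the filter through the AVFs where it was high. *Ap2s1*, a clathrin adaptor subunit that acts in the internalization of *Casr*, rose in early AVFs (log2 difference 2.31 ± 0.30, adjusted p = 2.2e-06). In its highest library *Ap2s1* reached 492 CPM, and the G protein subunit gene *Gnaq* reached 280 CPM.

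Some other members of the list were highest in the vessels with the most *Pth*. *Kl*, which encodes Klotho, the coreceptor for FGF23, had 3136 counts in early AVF 1, 2492 in late AVF 19, 803 in mid AVF 12, 80 in mid AVF 9, and a median of 4 over the 25 libraries. *Gata3*, a transcription factor of parathyroid development, had 1162, 821, and 500 counts in early AVF 1, late AVF 19, and mid AVF 12, but also 500 in early AVF 7. *Vdr* had 1494, 1437, and 675 counts in the same 3 libraries. *Kl* and *Gata3* were not called in any comparison (adjusted p of 0.17 or more) and were singled out after their values were seen.

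Genes of hormone processing were called in both directions, and none of the hormone's action was called. Of 16 granin and prohormone processing genes, 11 were tested, and 2 were higher and 2 lower at the early, 2 lower at the mid, and 1 lower at the late time point. *Cpe*, a carboxypeptidase that trims prohormones, fell by 3.49 on the log2 scale in early AVFs (SE 0.35, adjusted p = 3.8e-08), by 3.12 in mid (SE 0.41, adjusted p = 8.2e-06), and by 2.38 in late (SE 0.40, adjusted p = 0.00022). *Pam*, which amidates peptides, fell by 1.84 in early (SE 0.33, adjusted p = 0.00015) and by 1.53 in mid AVFs (SE 0.38, adjusted p = 0.0076), and the mid call was lost without the 4 libraries (adjusted p = 0.087) and in 12 of 25 fits with 1 library left out. *Ptprn* rose in early AVFs (log2 difference 6.13 ± 1.30, adjusted p = 0.0010). *Furin* rose in early AVFs (log2 difference 1.85 ± 0.49, adjusted p = 0.0074), a call lost in 11 of 25 fits with 1 library left out and without the 4 libraries (adjusted p = 0.020). *Rab3b*, a vesicle GTPase, was highest in early AVF 7 (208 CPM). The granin *Chgb* had 933 counts in early AVF 7 and 339 in late AVF 16, but 0, 0, 1, and 2 in early AVF 1, mid AVF 9, mid AVF 12, and late AVF 19. Of 12 genes of parathyroid hormone, vitamin D, and FGF23 signaling, 2 were tested and none was called. The highest single-library levels were those of *Pthlh*, which encodes the related hormone PTHrP (115 CPM), the receptor *Pth1r* (45.4 CPM), and *Calb1* (3.94 CPM).

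In 3 of the 10 AVFs with more *Chga* than *Pth*, genes of sympathetic neurons were high. Early AVF 7 and late AVF 16 had the most counts of *Th*, which encodes the rate-limiting enzyme of catecholamine synthesis (12692 and 6155), of *Dbh* (14978 and 5484), and of *Chgb*. In early AVF 1, mid AVF 9, mid AVF 12, and late AVF 19, *Th* had 10, 6, 0, and 13 counts. *Th* was at 57.8 CPM in late AVF 24 and 5.25 in mid AVF 14, but at 0 in mid AVF 15 and late AVF 23, which also had more *Chga* than *Pth*. Of 12 sympathetic neuron and chromaffin genes, 7 were tested, and 5 were higher at the early, 2 at the mid, and 2 at the late time point. These genes were at or near 0 in contralateral veins and passed the filter through the AVFs where they were high, so the counts of calls lend no support of their own. *Npy*, called in all 3 comparisons, was at 0 in all 7 contralateral veins and ranged from 1.91 to 375 CPM in early, 0.85 to 7.11 in mid, and 0.38 to 44.9 in late AVFs. *Gal*, also called in all 3, averaged 51.8 CPM in early AVFs and 0.0128 in contralateral veins. The early calls of *Th*, *Dbh*, and *Ddc* were each lost without early AVF 7, *Th* also without 6 of the contralateral veins and *Dbh* without contralateral vein 34, with adjusted p up to 0.17, 0.090, and 0.015 over the fits with 1 library left out. The mid call of *Npy* (adjusted p = 0.0050) was lost without mid AVF 14 and without the 4 libraries (adjusted p = 0.015).

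**Figure D3:**
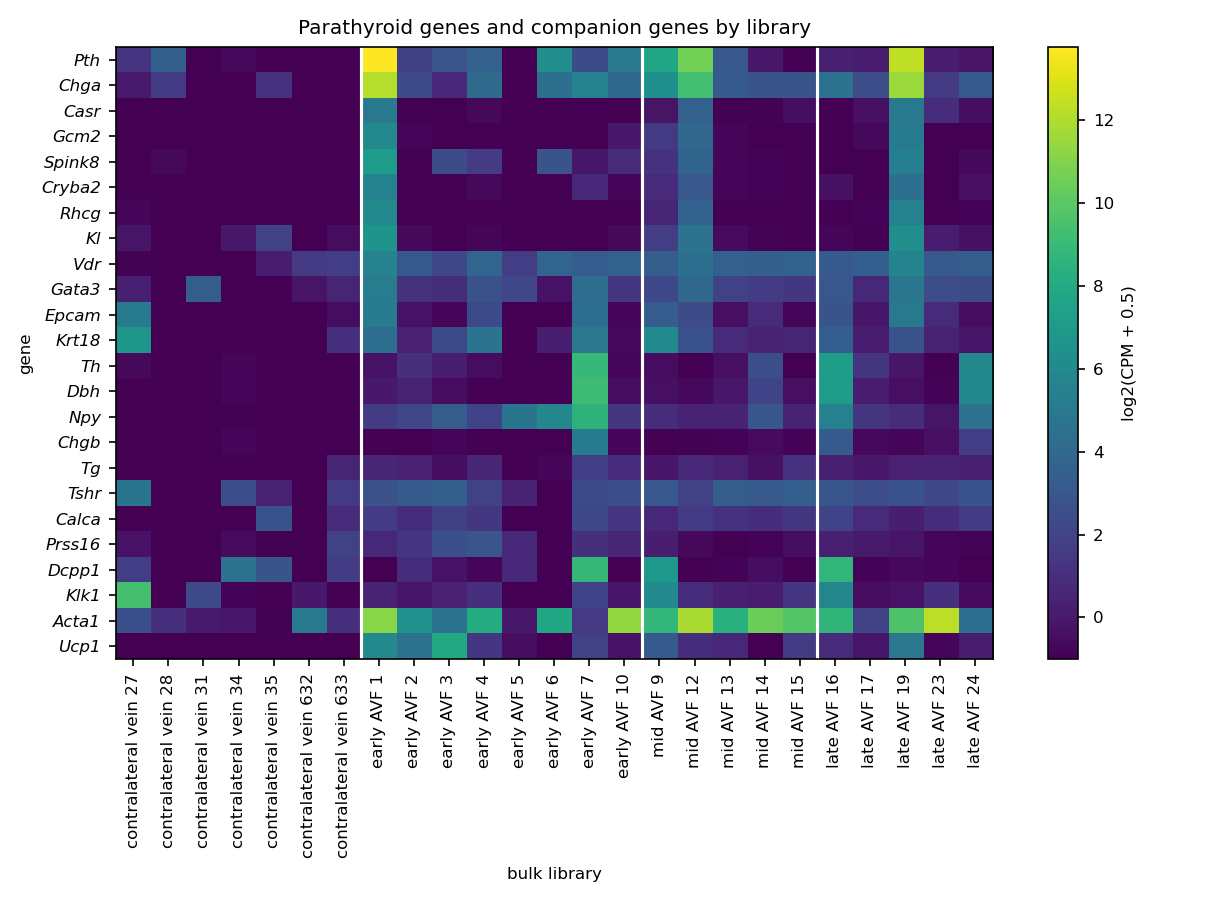
Level of 24 genes (rows) in 25 bulk libraries (columns, with white lines between contralateral, early, mid, and late), as log2(CPM + 0.5). The 4 parathyroid genes, *Spink8*, *Cryba2*, *Rhcg*, and *Kl* are bright in early AVF 1, mid AVF 12, and late AVF 19, while *Th*, *Dbh*, and *Chgb* are bright in early AVF 7, late AVF 16, and late AVF 24.

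Marker genes of the tissues around the gland gave the following values in the vessels with the most *Pth*. Of 12 thyroid follicle genes 1 was tested and none was called. *Tg*, which encodes thyroglobulin, had 31, 12, 36, and 24 counts in early AVF 1, mid AVF 9, mid AVF 12, and late AVF 19, against 78 at most elsewhere, and *Nkx2-1* and *Foxe1* were at 0 in all 25 libraries. The summed thyroid follicle level was 6.85, 9.11, 4.88, and 8.22 CPM in those 4 vessels and ranged from 0 to 27.7 CPM over all libraries, led by *Tshr*, *Duox2*, and *Slc5a5*. Of 6 thyroid C cell genes (among them *Gfra4* and *Calca*) 1 was tested and of 6 thymic epithelial genes (led by *Ccl25*, *Ly75*, and *Prss16*) 2 were tested, with none called. Their summed levels in the 4 vessels ranged from 3.62 to 10.7 CPM and from 12.1 to 14.6 CPM, inside the ranges of all libraries (0 to 27.6 and 0 to 37.1 CPM).

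The summed epithelial and skeletal muscle levels of the 4 vessels with the most *Pth* exceeded the medians over all libraries (6.77 and 199 CPM). The highest sums were in other vessels. Of 10 epithelial genes 4 were tested and none was called. *Epcam* had 1099 counts in early AVF 1 and 924 in late AVF 19, but also 887 in contralateral vein 27, where the summed epithelial level was highest (259 CPM, against 178 in mid AVF 9, 101 in early AVF 1, 69.1 in late AVF 19, and 19.4 in mid AVF 12). *Krt18* and *Krt8*, the other leading genes, were highest in contralateral vein 27 and mid AVF 9. Salivary gland genes were led by *Klk1* in contralateral vein 27 (673 CPM), *Dcpp1* in early AVF 7 (452 CPM), and *Amy1* in contralateral vein 34 (374 CPM), and of 5 tested only *Prlr* was called. On the log2 scale it fell by 5.17 in early, fell by 4.52 in mid, and fell by 4.46 in late vessels (adjusted p at most 0.00083), with the mid call lost without the 4 libraries (adjusted p = 0.012). Of 12 skeletal muscle genes, all tested, 9 were higher at the early, 9 at the mid, and 8 at the late time point, among them *Ckm*, *Myoz1*, *Myh4*, and *Pvalb*, and without the 4 libraries 4, 3, and 4 were. Their summed level, led by *Acta1*, *Ttn*, and *Tnnt3*, was 4810 CPM in early AVF 1, 10293 in mid AVF 12, and 1662 in late AVF 19, and highest at 11992 in late AVF 23, which had 23 *Pth* counts. In contralateral veins this sum had a median of 31.0 CPM. Passing the filter thus rested largely on the AVFs where the muscle genes were high, so the counts of their calls lend no support of their own. Of 8 adipocyte genes, *Ucp1* rose in early AVFs (42.9 CPM on average, against 0 in all contralateral veins, adjusted p = 0.0014), *Cfd* was lower in early AVFs (adjusted p = 0.0092, a call held in 9 of 25 fits with 1 library left out), and *Fabp4* was lower in mid and late AVFs (adjusted p = 0.00086 and 0.00065), the mid one lost without the 4 libraries (adjusted p = 0.028), while *Adipoq* was not called. Early *Ucp1* levels ranged from 0 in early AVF 6 to 253 CPM in early AVF 3. The gene passed the filter through the AVFs where it was high, so its call lends no support of its own. The part of these tissues in the *Pth* levels was not tested, and in bulk tissue fewer cells of a type and less RNA per cell cannot be told apart.

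Single cells showed which barcodes held the counts. The contralateral, early, and late libraries held 11563, 7074, and 7801 cell barcodes with medians of 1893, 7505, and 13080 UMIs, and between 14 and 19 barcodes were shared by any pair of libraries. With 1 library per group no test was made. No *Pth*, *Casr*, or *Gcm2* UMI was found in the contralateral library, which allows at most 3.69 UMIs of each (95% exact Poisson limit). Early AVFs held 81215 *Pth* UMIs (80660–81780), 17000 *Chga* UMIs (16750–17260), 48 *Casr* UMIs (35.4–63.6), and 50 *Gcm2* UMIs (37.1–65.9). Late AVFs held 48840 *Pth* UMIs (48410–49280), 11101 *Chga* UMIs (10900–11310), 23 *Casr* UMIs (14.6–34.5), and 34 *Gcm2* UMIs (23.6–47.5).

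Nearly all of these UMIs sat in 15 barcodes. Barcodes with at least 40 *Pth* UMIs, a limit set after the values were seen, are called *Pth*-rich: there were 8 in early AVFs and 7 in late AVFs of 26438 barcodes in all. They held 95.4% of the *Pth* UMIs and 96.3% of the *Chga* UMIs in early AVFs, and 97.2% and 96.9% in late AVFs. The early *Pth*-rich barcodes held 43569, 12980, 9419, 8315, 1660, 943, 510, and 71 *Pth* UMIs, and the next barcode held 18. The late ones held 22924, 7077, 7028, 5965, 4300, 127, and 46, and the next held 7. *Pth* was up to 33.5% of the UMIs of a barcode in early and up to 30.4% in late AVFs, and it ranked first among the genes in 5 of 8 and 5 of 7 of them.

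**Figure D4:**
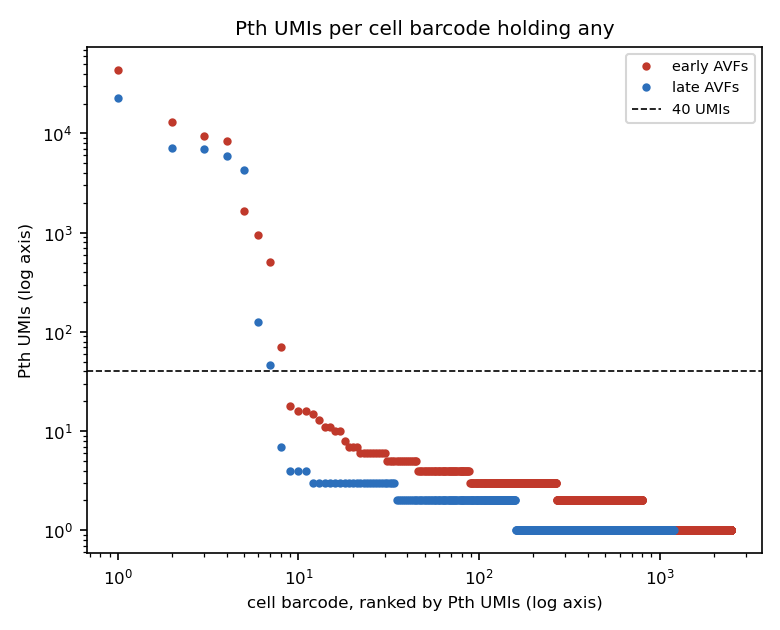
*Pth* UMIs per barcode (vertical, log axis) for barcodes with at least 1, ranked within the early and late AVF libraries (horizontal, log axis). The dashed line is at 40 UMIs. There are 8 early and 7 late barcodes above it, and the remaining barcodes fall to 18 UMIs or fewer.

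The other 3 genes were found in the same barcodes. *Chga* was present in all 15, at 88 to 7992 UMIs in early and 18 to 4196 in late AVFs. *Gcm2* was present in all 15 as well, at 1 to 19 and 1 to 12 UMIs, and *Casr* in 6 of 8 early and 5 of 7 late barcodes, at up to 22 and 8 UMIs. These barcodes held 46 of 48 *Casr* UMIs and 43 of 50 *Gcm2* UMIs in early AVFs, and 21 of 23 and 33 of 34 in late AVFs. *Pth* made up 82.6% of the *Pth* and *Chga* UMIs in the early *Pth*-rich barcodes (82.3–82.8) and 81.5% in the late ones (81.2–81.8). Single barcodes varied more widely, from 135 to 1274 *Chga* UMIs per 1000 *Pth* UMIs in early and from 183 to 1087 in late AVFs.

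Genes most like *Pth* or *Chga* in bulk, and *Kl*, *Gata3*, *Epcam*, and *Krt8* from the gene lists, were looked up in the *Pth*-rich barcodes. Some were concentrated there, and others were too sparse or lay mostly elsewhere. *Kl*, which was not among the genes most like *Pth*, had 195 UMIs in the early *Pth*-rich barcodes, 96.5% of all *Kl* UMIs of that library. It had 136 in the late ones (92.5%). *Spink8* had 460 UMIs (95.8%) and 171 (95.5%), *Cryba2* 243 (95.7%) and 100 (95.2%), and *Rhcg* 40 (90.9%) and 55 (90.2%). *Nell1* had 22 UMIs (95.7%) and 5 (83.3%), *2610528J11Rik* 14 (87.5%) and 7 (77.8%), and *Sycp2l* 8 (88.9%) and 2 (66.7%). *Cldn6*, with 3 and 6 UMIs, and *Fgf20*, with 2 and 2, were at or near the limit of 3 counts. Of the genes most like *Chga*, *Pcyt1b* had 20 UMIs (26.3%) and 19 (27.9%), *Bspry* 17 (33.3%) and 14 (23.3%), and *Prom2* 5 and 6. *Gata3* had 91 UMIs (24.5%) and 67 (5.83%), and *Epcam* had 242 (78.3%) and 145 (46.3%), so both were also present in other barcodes. Of the 4 epithelial markers all were detected in both sets. *Krt8* had 8, 1, 2, 0, 2, 0, 0, and 0 UMIs in the early *Pth*-rich barcodes and 219, 99, 43, 60, 0, 1, and 0 in the late ones, a difference between 2 libraries with no replicate check.

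Most marker classes of the other cells of the vessel were lower in them than in the other barcodes. *Pecam1*, *Th*, *Npy*, *Chgb*, *Tg*, and *Calca* were at 0 UMIs in all 15 barcodes. The limit of 3 counts in these barcodes was 11.5 CPM in early and 16.6 CPM in late AVFs. In the other barcodes only *Pecam1* of these genes, at 30.7 and 32.3 CPM, exceeded it. The remaining genes were at most 4.19 CPM there, so a 0 for them cannot show a lower level. Not all genes of their lists were at 0. The C cell list gene *Gfra4* was at 69.2 CPM against 3.99 in early and 82.8 against 3.85 in late AVFs. *Scg5* of the granin list was at 15.4 against 0.0532 and 55.2 against 0.117 CPM. The other genes of these 2 lists, *Chga* apart, were at 0 or lower than in the other barcodes. The summed leukocyte markers were at 49.98 CPM in the early *Pth*-rich barcodes against 2215 in the other barcodes, and 33.1 against 1266 in late AVFs. The summed fibroblast markers were at 311 against 26230 and at 442 against 25650, and the endothelial markers were at 0 against 77.0 and 69.6. B cell markers were at 0 as well, but at 5.75 and 9.46 CPM in the other barcodes, below the same limit. The neutrophil markers were at 327 against 2457 in early and 11.04 against 468 in late AVFs. In early AVFs, the barcode with 71 *Pth* UMIs held 35 *S100a8* UMIs and the other *Pth*-rich barcodes none. Macrophage markers were at 165 against 6314 in early and 105 against 2739 CPM in late AVFs, smooth muscle markers at 26.9 against 2353 and 93.9 against 3457, and erythroid markers at 119 against 6219 and 0 against 200.1. T cell markers were at 3.84 against 25.1 and 0 against 57.2. Schwann cell markers were at 3.84 against 11 CPM in early AVFs, both below the limit of 11.5 CPM, so no lower level can be shown. In late AVFs they were at 22.1 against 26.1 CPM, with a UMI in 3 of 7 barcodes. No doublet caller was run.

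**Figure D5:**
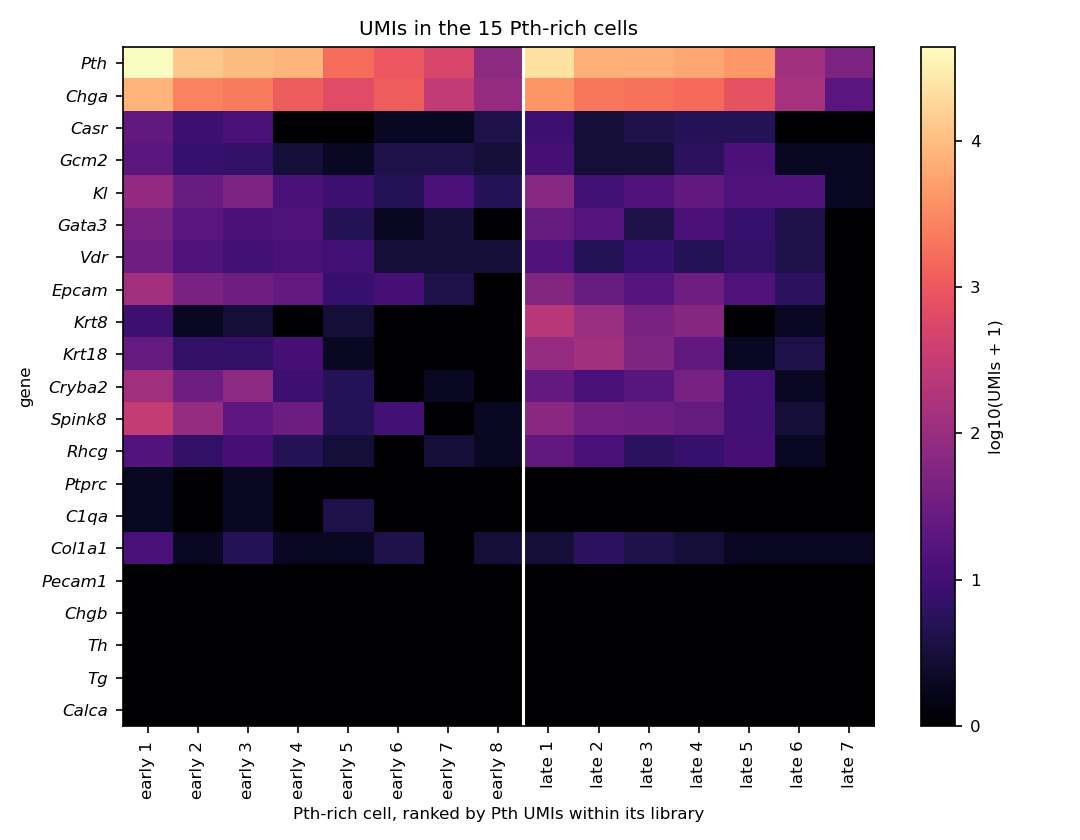
UMIs of 21 genes (rows) in the 15 *Pth*-rich barcodes (columns, 8 early then 7 late, ranked by *Pth*), as log10(UMIs + 1). *Pth* and *Chga* are bright in nearly all columns, *Casr* and *Gcm2* are dim, *Krt8* is brightest in 4 late columns, and *Pecam1*, *Chgb*, *Th*, *Tg*, and *Calca* are at 0 throughout.

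The filter on cells that the study states, 200 to 6000 genes and at most 10% mitochondrial counts, kept 4 of 8 early and 4 of 7 late *Pth*-rich barcodes. The barcode with the most *Pth* in each library exceeded 6000 genes (8935 and 7257 genes), and 3 early and 2 late barcodes exceeded 10% mitochondrial counts. The removed barcodes held 57.5% of the *Pth* UMIs in early and 47.3% in late AVFs.

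Outside the *Pth*-rich barcodes, *Pth* was found at 1 or a few UMIs in many cells. Counting every barcode, 35.3% held a *Pth* UMI in early AVFs (34.1–36.4, exact binomial) and 15.3% in late AVFs (14.51–16.12). In early AVFs, it was found in 33.9% of barcodes with a *Ptprc* UMI (median depth 10207 UMIs), in 51.8% of those with at least 50 *Col1a1* UMIs (43588 UMIs), in 43.7% of those with at least 2 *Pecam1* UMIs (20306 UMIs), and in 31.5% of those with a *Cd3e* UMI (6057 UMIs). In late AVFs the shares were 15.3%, 20.9%, 17.3%, and 12.7%, with median depths of 11772, 29699, 21444, and 7051 UMIs. Leukocytes, which should lack the gene, are among these barcodes, so shares at this level are not read as expression of *Pth*. Free RNA was not measured in empty droplets. *Pth* made up 85.5% of the *Pth* and *Chga* UMIs of these other barcodes in early AVFs (84.4–86.5) and 80.1% in late AVFs (78.1–82.0). The *Pth*-rich barcodes stood at 82.6% in early and 81.5% in late AVFs. These intervals take UMIs as independent and do not cover the spread between barcodes. In the early *Pth*-rich barcodes *Chga* ranged from 135 to 1274 UMIs per 1000 *Pth* UMIs. With 1 library per group, no difference is read from these shares.

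*Chga* was also found apart from *Pth*. In the contralateral library 13 of 11563 barcodes (0.112%, 0.0599–0.192) held 129 *Chga* UMIs, and 5 of them held 5 or more. Of these 5, 3 held 89 to 251 *Th* UMIs and 212 to 417 *Dbh* UMIs, 1 held 25 *Dbh* and 12 *Chgb* UMIs with no *Th*, and 1 held 20 *Pecam1* UMIs and none of these genes. In early AVFs, 3 barcodes held 27, 7, and 7 *Chga* UMIs with no *Pth* and 4 to 27 *Pecam1* UMIs. Late AVFs had barcodes with 5 and 5 *Chga* UMIs, no *Pth*, and 61 and 11 *Pecam1* UMIs. Another late barcode held 7 *Chga*, 1 *Pth*, and 7 *Pecam1* UMIs.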

How the data were processed

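Bulk libraries were provided as raw counts per gene that the authors made and deposited (STAR and the mm10 build in the submitters' processing notes; counter and strand setting not given in the sources used here), and single-cell data as deposited UMI counts per gene and barcode from Cell Ranger 6.0.2. The 4 genes and all gene lists were chosen with earlier results of these data known. Counts were scaled by TMM and fitted with edgeR 4.0.16 (glmQLFit, R 4.3.3) over all 4 bulk groups, without covariates, for genes with a mean normalized count of at least 100, as in the study's methods. Named genes were the called genes of each list with the largest changes (up to 4), its 3 genes with the highest CPM, and the genes most like each of the 4 genes; others are said to be picked after their values were seen. *Krt8*, *Chgb*, *Scg5*, *Tg*, *Nkx2-1*, *Foxe1*, and the single-cell marker classes were also picked so. The fit was tested on simulated data. Alternatives were DESeq2 1.42.0, other filters, scalings, and thresholds, a sex term, and leaving out libraries. Gene positions came from GENCODE M21 and upstream windows from RefSeq. Totals of 20254173 to 67457501 counts per library set the limit of 3 counts where a gene was at 0. Some genes of the lists, which still enter the counts and sums, are not reported here by name.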

Additional observations from a re-analysis of the deposited data

Results flagged for a closer look

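In 13 of the 14 combinations of gene and group in which libraries differed, the highest library was far from the rest by Dixon's criterion for a single far value. The criterion flags about 1 group in 20 by chance, but that rate does not apply here because the genes were selected on these same values, and the values are given as a description. For *Pth* these were contralateral vein 28 at 10.8 CPM (next highest 1.88), early AVF 1 at 13919 (77.9), mid AVF 12 at 1592 (216), and late AVF 19 at 5268 (0.748). For *Chga* they were early AVF 1 at 4467 CPM (44.6), mid AVF 12 at 659 (84.0), and late AVF 19 at 3046 (22.9). For *Casr* they were early AVF 1 at 30.6 CPM (0.133), mid AVF 12 at 11.5 (0.345), and late AVF 19 at 31.2 (1.40). For *Gcm2* they were early AVF 1 at 61.5 CPM (0.507), mid AVF 12 at 14.0 (2.31), and late AVF 19 at 33.5 (0.126). The 4 genes are high in the same libraries, so these are not 13 separate events.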

How the results depend on the processing

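The called genes numbered 1599, 767, and 676 at the early, mid, and late time points. They were 2410, 1398, and 1278 with DESeq2's Wald test, 3803, 2823, and 2696 with edgeR's own expression filter, 3938, 2728, and 2567 with no filter, and 2520, 1421, and 1304 at an adjusted p under 0.05. Without the 4 libraries with *Pth* above 100 CPM, an alternative chosen after seeing the data, they were 1127, 235, and 275. With 1 library left out they ranged from 1370 to 1825, 530 to 955, and 432 to 889, and the late count was 432 without late AVF 16, 435 without late AVF 17, and 446 without late AVF 24. With 1 library left out, mean *Pth* ranged over 0.336–2.13 CPM for contralateral veins, 19.1–2008 for early, 56.0–454 for mid, and 0.586–1317 for late AVFs. Mean *Chga* ranged over 0.381–0.764, 14.8–653, 26.5–190, and 9.71–771 CPM. Mean *Casr* ranged over 0.0190–4.39, 0.149–3.03, and 0.472–8.28 CPM and mean *Gcm2* over 0.0834–8.87, 0.605–4.11, and 0.0315–8.40 CPM in early, mid, and late AVFs. Of the 10 genes most like *Pth*, 2 were kept with Spearman's rho, 1 without the 4 libraries, and 8 to 10 with 1 library left out. At 2 or more UMIs the share of barcodes was 11.3% for *Pth*, 0.806% for *Chga*, and 0.0990% for *Gcm2* in early AVFs, 2.04% for *Pth* and 0.321% for *Chga* in late AVFs, and 0.0432% for *Chga* in contralateral veins. In filtered barcodes it was 33.6% for *Pth* and 6.33% for *Chga* in early AVFs. The causes were not tested. With edgeR's own filter the calls split into 2793 higher and 1010 lower, 2272 and 551, and 2209 and 487, against 782 and 817, 347 and 420, and 315 and 361. List medians, which have no test, changed sign in 8 cases. With that filter, which tests more genes, signaling went from -0.91 to 0.94, -0.40 to 1.63, and -0.27 to 1.68, and at the mid time point granins from -0.43 to 1.49, thyroid follicle from 0.64 to -2.29, and C cell from -0.79 to 0.79. Without the 4 libraries, epithelium went from 0.26 to -0.55 and 0.26 to -4.49 at the early and mid time points, with 2 genes left. No paired analysis was possible because the bulk groups share no replicate numbers and each single-cell group has 1 library. Depth limits *Casr* and *Gcm2* most: 5 libraries each reached 10 counts, of 10 and 8 with any.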

Other observations

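*Pth*-rich barcodes with less *Pth* differed in other values too. The 3 early ones with 943, 510, and 71 *Pth* UMIs had 1274, 571, and 1239 *Chga* UMIs per 1000 *Pth* UMIs, against 135 to 240 in the 4 with the most *Pth*. The mitochondrial share was 21.8%, 11.1%, and 6.36% in those 3 and 3.73% to 5.11% in those 4. The early barcode with 1660 *Pth* UMIs had 391.6 and 13.6%. In late AVFs, the barcode with 127 *Pth* UMIs had 1087 *Chga* UMIs per 1000 *Pth* UMIs and a mitochondrial share of 20.4%, whereas the one with 46 had 391 and 27.2%, and those with the most *Pth* had 183 to 295. The part of barcode quality in these values was not tested.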
